A study of Mus musculus with 8 samples.

Results

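Granins and the enzymes that process peptide precursors were followed in nuclear RNA of mouse forebrain excitatory neurons during pilocarpine-induced seizure. The set held 9 genes chosen by symbol, of 55471 genes in the exonic table: the granins Chga, Chgb, Scg2, Scg3 and Vgf, the convertase chaperone Scg5, the prohormone convertases Pcsk1 and Pcsk2, and the carboxypeptidase Cpe. All 9 were also among the 18513 genes of a second table, which gives exonic and intronic counts apart. Each of the 9 passed the filter on low counts in every comparison.

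The samples were 4 from pilocarpine-treated mice (Pilo) and 4 from mock-treated mice (Mock). All 8 came from male C57BL/6J mice of 6 to 8 weeks with the genotype CaMKIIalpha-Cre:SUN1-sfGFP, in which Cre under a CaMKIIalpha promoter switches on a GFP-tagged protein of the nuclear envelope. Tagged nuclei were pulled from forebrain homogenate by an antibody against GFP, so cytoplasmic RNA is largely outside the measurement. Every mouse, Mock included, was first injected with scopolamine methyl nitrate, 1 mg/kg. The second injection, given 30 min later, was 340 mg/kg pilocarpine hydrochloride for Pilo and saline for Mock. Pilo mice were left for 100 min while seizures developed, and only those with Racine scores of 3 to 5 were used, a selection by seizure that Mock mice did not undergo. Pilocarpine is a muscarinic agonist, and this form of scopolamine blocks muscarinic receptors mainly outside the brain. Drug and seizure went together in every Pilo sample and cannot be told apart. Nothing in the labels ties the samples to different mice, and p-values therefore describe sample-to-sample spread that may be partly technical.

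Neurons store peptide transmitters in dense core vesicles, which bud from the Golgi, mature along the way and are released mainly during strong or repeated firing. Granins are acidic, calcium-binding proteins that aggregate in the Golgi and help to pack this cargo, and several are themselves cut into active peptides. Prohormone convertases cut precursors at pairs of basic residues, and carboxypeptidase E trims the basic residues left at the new ends. In neurons several of these genes, Vgf and Scg2 among them, are known as targets of activity and of cAMP signalling through the factor CREB, which binds the cAMP response element (CRE).

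The promoter sequences of 5 members that rose are shown because 3 of them carry the full CRE letters and 2, Chga and Scg3, carry the core letters. That of Pcsk2, whose exonic level did not pass the test, also has the core letters, and that of Scg5 has none in these bases and is not shown. The sequences are from RefSeq on GRCm38.p6, read on the strand of the gene, and span the 130 bases before the RefSeq start. Capitals mark the core CRE letters TGACG on either strand, which also make up the full CRE TGACGTCA where both strands meet.
Scg2: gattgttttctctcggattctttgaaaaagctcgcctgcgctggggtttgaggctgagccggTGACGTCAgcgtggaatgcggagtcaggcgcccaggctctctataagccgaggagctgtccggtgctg
Chgb: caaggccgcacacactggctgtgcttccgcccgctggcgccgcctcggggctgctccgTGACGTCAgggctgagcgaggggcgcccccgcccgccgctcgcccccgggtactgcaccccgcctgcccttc
Pcsk1: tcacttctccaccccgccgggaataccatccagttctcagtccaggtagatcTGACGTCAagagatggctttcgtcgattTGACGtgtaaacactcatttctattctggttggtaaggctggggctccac
Chga: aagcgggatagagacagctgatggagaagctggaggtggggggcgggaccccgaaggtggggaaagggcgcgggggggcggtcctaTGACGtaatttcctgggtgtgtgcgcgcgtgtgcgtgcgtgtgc
Scg3: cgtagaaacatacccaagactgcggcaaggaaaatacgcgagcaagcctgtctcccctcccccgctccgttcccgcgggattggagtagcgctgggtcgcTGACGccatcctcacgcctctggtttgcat
Pcsk2: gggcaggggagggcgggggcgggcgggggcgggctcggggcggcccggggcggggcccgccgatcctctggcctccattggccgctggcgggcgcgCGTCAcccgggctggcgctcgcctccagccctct
These windows lie at chr1:79440027-79440156 on the minus strand for Scg2, chr2:132781512-132781641 on the plus strand for Chgb, chr13:75089727-75089856 on the plus strand for Pcsk1, chr12:102554811-102554940 on the plus strand for Chga, chr9:75684057-75684186 on the minus strand for Scg3 and chr2:143546003-143546132 on the plus strand for Pcsk2. GENCODE vM21 begins Scg2, Chgb and Pcsk1 further upstream than RefSeq does. All of the Chgb window and parts of the Scg2 and Pcsk1 windows therefore count as transcribed there. The full CRE letters of Chgb and Scg2 lie in the transcribed part, and those of Pcsk1 lie before it.

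The search covered 300 bases around each start, 250 before and 50 after it, on both strands, and 7 members had such a window; Vgf and Cpe are named only. The full CRE began at position -68 in Scg2, -72 in Chgb and -78 in Pcsk1, counted from the RefSeq start. Those 3 of 7 windows compare with 1.79% of the 32851 windows of all genes. The core CRE was in all 7 members' windows and in 20.8% of all windows, and it is part of every full CRE. Chga had it once, at -44, and Pcsk2 once, at -34 on the opposite strand, while Scg3 had it at -30 and Scg5 at -175, 19 and 40. An AP-1 site, TGANTCA, was in 0 of the 7 windows and in 7.81% of all windows. A match describes these letters and no more.

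Levels are CPM, counts scaled by TMM library size. Depth was 29356788 to 36161448 counts per library in the exonic table, and 27135364 to 33715773 exonic and 11928054 to 16703475 intronic counts in the second table. Numbers 2 and 3 are swapped from one table to the other, in Pilo and in Mock, and which table follows the sample titles is not known. A library number is that of the table in question. Mitochondrial genes held 0.0157 to 0.0524% of exonic counts in Pilo and 0.0165 to 0.0461% in Mock. The share went with the replicate number, at 0.0179, 0.0157, 0.0524 and 0.0462% in Pilo libraries 1 to 4. In Mock libraries 1 to 4 it was 0.0165, 0.0170, 0.0461 and 0.0392%. The activity genes Fos, Arc and Npas4 rose by 3.23 (SE 0.46), 2.05 (SE 0.39) and 2.06 (SE 0.27) on the log2 scale. Exonic Mock library 4 was the highest Mock library for each, at 29.2, 244 and 128 CPM, and still below every Pilo library. Mock libraries 1 to 3 had 8.29 to 12.7, 70.9 to 120 and 55.6 to 98.1 CPM. Defining markers of excitatory neurons were present, with Slc17a7 at 890.2 CPM in Pilo and 973 CPM in Mock and Camk2a at 1520.2 CPM in Pilo and 1325 CPM in Mock. Of the 6 excitatory markers, Neurod6, Tbr1 and Slc17a6 rose, and the summed level ran from 2459 to 2956 CPM in Pilo and from 2206 to 2805 CPM in Mock. Inhibitory markers were low but present, at 153 to 239.7 CPM summed in Pilo and 117 to 154 CPM in Mock, and 2 of 6 rose, Gad1 by 0.46 (SE 0.15) and Gad2 by 0.43 (SE 0.14). Oligodendrocyte markers summed to 324 to 571 CPM in Pilo and 249.6 to 337 CPM in Mock, and 1 of 4, Mbp, rose by 0.64 (SE 0.15). Of 4 astrocyte, 4 microglial and 3 endothelial markers, 0 passed the test in exons (0 also at unadjusted p under 0.05, by DESeq2 and by limma-voom), with summed levels of 90.6 to 235, 9.54 to 16.01 and 4.60 to 34.2 CPM in Pilo, against 86.2 to 177, 7.46 to 14.0 and 2.79 to 11.6 CPM in Mock. No marker in the table was at 0 in every library. In introns 2 of the 6 excitatory and 4 of the 6 inhibitory markers rose. So did 1 marker each of the 4 astrocyte, 4 oligodendrocyte and 4 microglial ones, and 1 endocrine and chromaffin marker, Dbh, fell. Over all genes tested, 19.6% were called higher and 21.9% lower in introns, against 15.6% and 16.2% in exons. The 3 endocrine and chromaffin markers in the exonic table summed to 2.52 to 4.53 CPM in Pilo and 2.66 to 3.95 CPM in Mock, and 0 passed the test in exons (0 also at unadjusted p under 0.05, by DESeq2 and by limma-voom). Peptide-rich inhibitory neurons and glia also express several of the 9 genes, and the part of such nuclei in the results was not tested; in bulk RNA, more nuclei of a type and more RNA per nucleus cannot be told apart.

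The first question was which of these genes differed in exonic RNA between Pilo and Mock. Of the 9 genes, 7 rose and 0 fell in the exonic table, where 31.8% of the 19176 genes tested were called, 15.6% higher and 16.2% lower. No member fell at unadjusted p under 0.05, by DESeq2 or by limma-voom. With the replicate number as a block, 6 members rose and 0 fell, where 47.0% of genes were called, 23.8% higher and 23.2% lower. The 7 were the 5 granins, Pcsk1 and Cpe, with Scg5 and Pcsk2 not passing. The median log2 fold change of the 9 was 0.55, against 0.00 over all genes tested, and RLE scaling shifted all genes by 0.01. Each adjusted p comes from the edgeR quasi-likelihood fit, corrected over all genes tested by Benjamini-Hochberg, with 0.05 as the threshold.

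**Figure D1:**
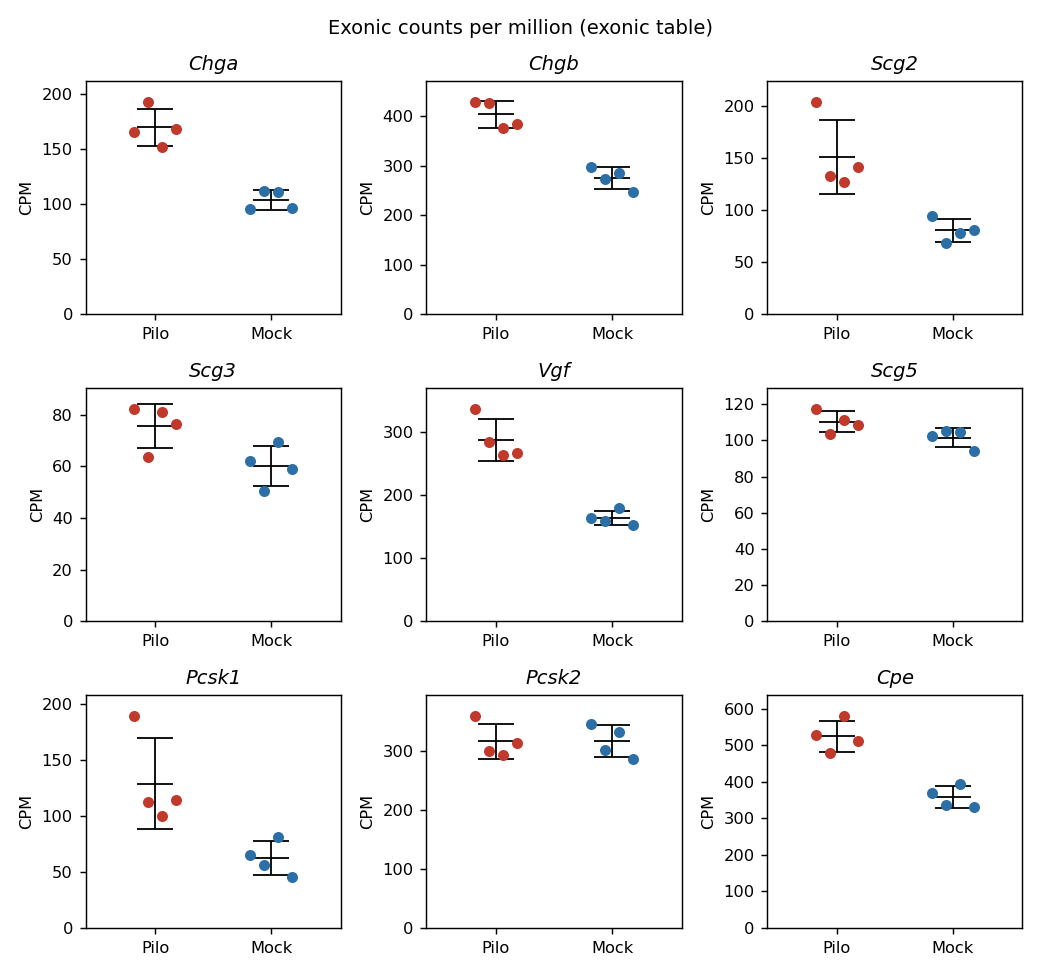
Exonic CPM of the 9 genes, each point 1 library, Pilo left of Mock, with the mean and SD of 4 libraries as bars. The groups do not overlap for Chga, Chgb, Scg2, Vgf, Pcsk1 and Cpe, while those of Scg3, Scg5 and Pcsk2 share part of their range.

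Vgf, a granin named for its induction by nerve growth factor, is the source of several neuroactive peptides. It lies on GRCm38 chromosome 5, 137026392 to 137033351 (ENSMUSG00000037428). Its exonic level was 337, 284, 264 and 266 CPM in Pilo libraries 1 to 4, against 163, 159, 179.7 and 153 CPM in Mock libraries 1 to 4. Every Pilo library stood above every Mock library, and the rise was 0.82 on the log2 scale (SE 0.09, adjusted p = 3.53e-05).

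Chromogranin A, encoded by Chga on chromosome 12, 102554969 to 102565028 (ENSMUSG00000021194), drives granule formation in endocrine cells. Its level was 166, 193, 153 and 168 CPM in Pilo, against 95.6, 113, 112 and 96.8 CPM in Mock. The groups were apart, and the rise was 0.71 on the log2 scale (SE 0.09, adjusted p = 8.32e-05). Chgb, encoding chromogranin B (chromosome 2, 132781278 to 132795079, ENSMUSG00000027350), stood at 429, 427, 377 and 385 CPM in Pilo, against 298, 273, 286 and 247 CPM in Mock. Its groups were apart too, and it rose by 0.55 (SE 0.08, adjusted p = 0.000286).

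Scg2, on chromosome 1, 79434669 to 79440120 (ENSMUSG00000050711), encodes secretogranin II, the precursor of the peptide secretoneurin. Its level was 203, 132, 127 and 141 CPM in Pilo, against 94.6, 68.6, 77.9 and 80.5 CPM in Mock. Pilo library 1 stood well above the other Pilo libraries, all of which were above every Mock library, and the log2 fold change was 0.91 (SE 0.15, adjusted p = 0.000820). Scg3 (chromosome 9, 75643189 to 75684056, ENSMUSG00000032181), a granin that binds chromogranin A and the vesicle membrane, had 82.3, 63.5, 81.1 and 76.4 CPM in Pilo, against 62.1, 50.4, 69.4 and 59.2 CPM in Mock. Pilo library 2 lay below Mock library 3. The rise of 0.33 (SE 0.11, adjusted p = 0.0283) lost its call without Mock library 2 or 4 or Pilo library 1, 3 or 4, at adjusted p up to 0.0840, but held when the replicate number was blocked for (adjusted p = 7.25e-05).

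Of the convertase genes, Pcsk1 rose and Pcsk2 did not pass the test. Pcsk1 encodes the convertase that acts early in the regulated pathway, and Pcsk2 one that acts later and needs the Scg5 product for its maturation. Pcsk1 (chromosome 13, 75089826 to 75134861, ENSMUSG00000021587) had 189.7, 112, 99.8 and 114 CPM in Pilo, against 65.6, 56.1, 81.6 and 45.6 CPM in Mock. The groups were apart, with Pilo library 1 far above the rest, and the log2 fold change of 1.05 was the largest of the 9 genes' exonic changes (SE 0.25, adjusted p = 0.0127). Its call was lost when the replicate number was blocked for (adjusted p = 0.0537) and with no filter on low counts (adjusted p = 0.0528). Without Pilo library 1 the rise was 0.81 (adjusted p = 0.00533).

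Pcsk2 (chromosome 2, 143546156 to 143816285, ENSMUSG00000027419) had 360.1, 299.8, 293 and 314 CPM in Pilo, against 346, 302, 332 and 286 CPM in Mock. The groups covered nearly the same range, and the log2 fold change was 0.00 (SE 0.09). In the annotation 2 antisense genes, Pcsk2os1 and Pcsk2os2, share 260 and 99 bases with its exons, and their own counts did not exceed 200 in a library. Scg5 (chromosome 2, 113776362 to 113829121, ENSMUSG00000023236), the chaperone of the Pcsk2 product, had 117, 103, 111 and 109 CPM in Pilo, against 103, 105, 105 and 94.0 CPM in Mock. These ranges overlapped too, and the log2 fold change was 0.12 (SE 0.07, adjusted p = 0.235).

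Cpe, on chromosome 8, 64592542 to 64693054 (ENSMUSG00000037852), had 528, 480.2, 581 and 512 CPM in Pilo, against 370.1, 336, 395 and 332 CPM in Mock. The groups were apart, and the log2 rise was 0.55 (SE 0.09, adjusted p = 0.000390). In the second table, whose exonic columns rest on other gene models, the same 7 genes rose and 0 fell, where 34.0% of 14239 genes were called, 16.5% higher and 17.5% lower. With the block the counts were again 7 and 0, where 49.9% of genes were called, 25.1% higher and 24.8% lower. No member fell there at unadjusted p under 0.05, by DESeq2 or by limma-voom.

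Per kilobase of annotated exon, Cpe had the highest level of the 9 genes and Pcsk1 the lowest in both groups. Cpe stood at 201 ± 16.1 CPM per kb in Pilo and 137 ± 11.4 CPM per kb in Mock (SD, n = 4 each), followed by Chgb at 148 ± 10.0 in Pilo and 101 ± 8.01 in Mock. Vgf was above Scg5 in Pilo and below it in Mock: Vgf had 96.8 ± 11.4 CPM per kb in Pilo and 55.0 ± 3.91 in Mock, and Scg5 had 70.3 ± 3.70 in Pilo and 64.7 ± 3.30 in Mock. The libraries of Vgf and Scg5 did not overlap in Pilo and did in Mock.

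Lower in the order, Chga had 61.7 ± 6.08 CPM per kb in Pilo and 37.8 ± 3.34 in Mock, and Scg2 had 60.0 ± 14.1 in Pilo and 32.0 ± 4.28 in Mock. Pcsk2 had 40.0 ± 3.82 CPM per kb in Pilo and 40.0 ± 3.45 in Mock, which placed it below Chga and Scg2 in Pilo and above them in Mock. Scg3 had 27.7 ± 3.13 CPM per kb in Pilo and 22.0 ± 2.86 in Mock, and Pcsk1 23.0 ± 7.31 in Pilo and 11.1 ± 2.73 in Mock. Among neighbours in the order, the libraries overlapped in Pilo for Scg5 with Chga, Chga with Scg2 and Scg3 with Pcsk1. In Mock they overlapped for Scg5 with Vgf, Pcsk2 with Chga and Chga with Scg2.

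The second question was how intronic counts of the same genes behaved. Introns are removed as RNA is made, so their reads come mainly from RNA that is not fully spliced. Such reads are often taken to follow recent transcription more closely than exonic reads do. The libraries were made from polyadenylated RNA, and how far intronic counts follow transcription here was not tested. Of the 9 genes, 8 rose and 1, Scg5, fell in the intronic columns, where 41.4% of the 13318 genes tested were called, 19.6% higher and 21.9% lower. With the block the counts were again 8 and 1, where 56.9% were called, 27.7% higher and 29.2% lower. The median log2 fold change of the 9 was 1.23, against -0.00378 over all genes tested.

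**Figure D2:**
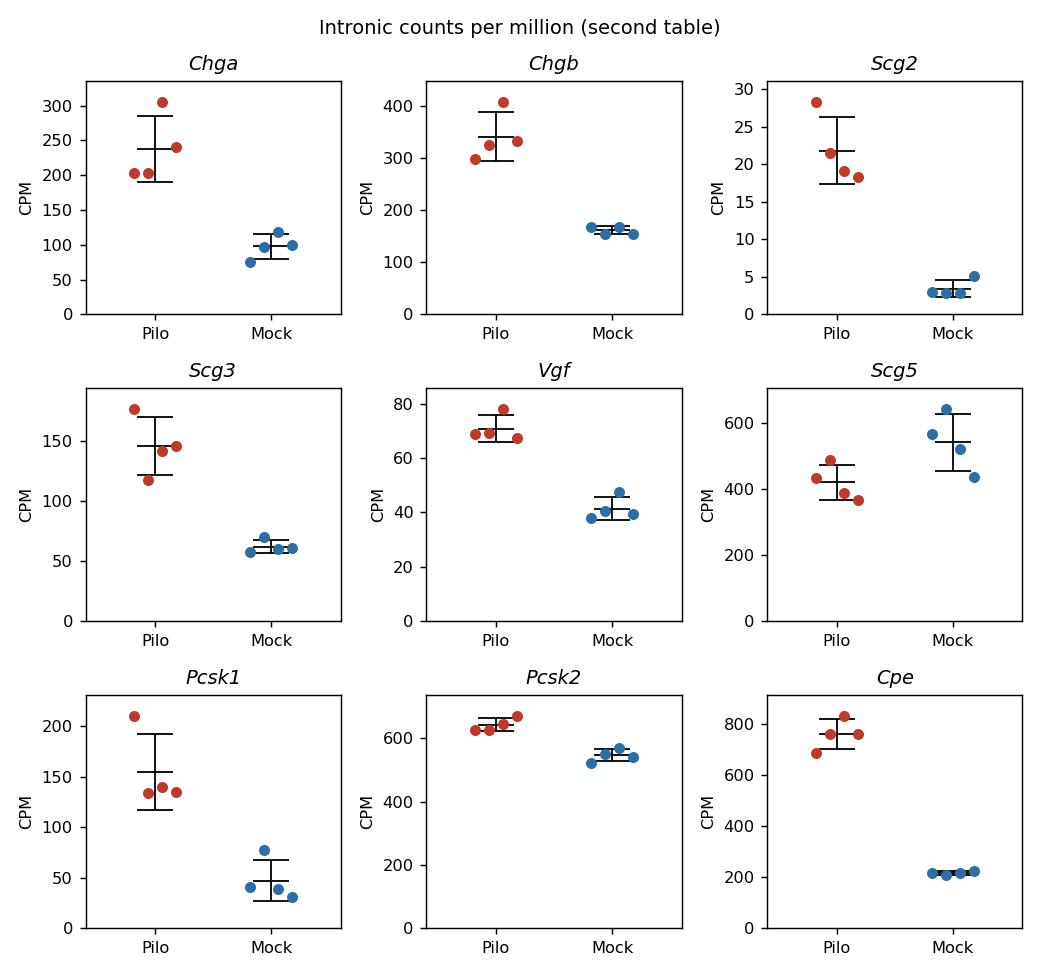
Intronic CPM of the 9 genes in the second table, each point 1 library, Pilo left of Mock, with the mean and SD of 4 libraries as bars. Scg2 and Cpe stand furthest apart relative to Mock, Pcsk2 differs by a narrow gap, and Scg5 is lower in Pilo with overlapping libraries.

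Intronic counts of Cpe were 689, 764, 834 and 762 CPM in Pilo, against 214, 209, 217 and 224 CPM in Mock. All Pilo libraries were more than 3 times as high as any Mock library, and the log2 fold change was 1.82 (SE 0.09, adjusted p = 5.49e-09). Only 3 genes of all those tested had a smaller intronic p. Scg2, with a single short intron, had 28.3, 21.6, 19.1 and 18.3 CPM in Pilo, against 3.00, 2.86, 2.83 and 5.08 CPM in Mock. Mock library 4 was the highest Mock library and still far below Pilo. The change, 2.67 on the log2 scale (SE 0.21, adjusted p = 4.55e-07), was the largest of the 9 and rests on 39 to 73 Mock reads per library.

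Pcsk1 introns stood at 211, 134, 139.7 and 134 CPM in Pilo, against 41.0, 77.2, 38.9 and 30.7 CPM in Mock. The groups were apart, with Pilo library 1 and Mock library 2 each standing above the rest of its group, and the log2 fold change was 1.72 (SE 0.28, adjusted p = 0.000971). Chga introns had 204, 203, 305 and 240.0 CPM in Pilo, against 75.5, 96.1, 119 and 99.9 CPM in Mock, a rise of 1.29 (SE 0.15, adjusted p = 1.17e-05). Here Pilo library 3 was the highest, and not library 1.

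Chgb introns had 299, 326, 407 and 333 CPM in Pilo, against 167, 155, 168 and 154 CPM in Mock, a rise of 1.08 (SE 0.10, adjusted p = 2.57e-06). Scg3 introns had 177, 118, 142 and 145 CPM in Pilo, against 57.7, 69.8, 60.0 and 60.5 CPM in Mock, a rise of 1.23 (SE 0.12, adjusted p = 3.38e-06). The intronic groups of Scg3 were thus apart, unlike its exonic groups. Vgf introns had 68.8, 69.3, 78.1 and 67.4 CPM in Pilo, against 38.0, 40.4, 47.6 and 39.4 CPM in Mock, a rise of 0.78 (SE 0.11, adjusted p = 5.18e-05).

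Pcsk2 introns, the longest of the set at 262 kb, had 628, 628, 645 and 672 CPM in Pilo, against 524, 551, 569 and 542 CPM in Mock. Every Pilo library was above every Mock library, by a small step. The rise of 0.24 (SE 0.08, adjusted p = 0.0321) lost its call without Mock library 1, 2 or 4 or Pilo library 3 or 4, at adjusted p up to 0.100, and with no filter on low counts (adjusted p = 0.0619). With the replicate number as a block its adjusted p was 0.00109.

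Scg5 introns went the other way, with 434, 489, 389.7 and 369 CPM in Pilo, against 568, 643, 521 and 437 CPM in Mock. Mock library 4 lay below Pilo library 2, so the groups overlapped. The fall of 0.37 (log2 fold change -0.37, SE 0.12, adjusted p = 0.0247) lost its call without Mock library 1 or 2 or Pilo library 3 or 4, at adjusted p up to 0.0938. It held when the replicate number was blocked for (adjusted p = 2.21e-05). GENCODE vM21 lists no other gene overlapping Scg5.

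The third question was whether exonic and intronic counts of a gene changed by the same factor, each relative to all genes in its region. The region-by-treatment term gives the exonic log2 fold change minus the intronic one, within the second table. Exonic and intronic columns were scaled apart, so a shift of the intronic share common to all genes is taken out of this term. Of the 9 genes, 7 had the smaller exonic change and 1, Scg5, the larger, where 26.2% of 13047 genes were called, 12.8% with a smaller and 13.5% with a larger exonic change. The block gave the same counts, where 39.3% were called, 18.7% with a smaller and 20.5% with a larger exonic change. The difference was -1.79 (SE 0.16, adjusted p = 1.53e-05) for Scg2 and -1.29 (SE 0.10, adjusted p = 4.28e-06) for Cpe. It was -0.91 (SE 0.12) for Scg3, -0.75 (SE 0.11) for Pcsk1, -0.60 (SE 0.10) for Chga and -0.54 (SE 0.09) for Chgb, with adjusted p from 0.000261 to 0.000972.

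For Vgf the difference was 0.01 (SE 0.11, adjusted p = 0.973) and did not pass the test. Its exonic and intronic log2 fold changes in the second table were 0.79 and 0.78. For Scg5 the difference was 0.46 (SE 0.10, adjusted p = 0.00377). For Pcsk2 it was -0.26 (SE 0.09, adjusted p = 0.0446), a call lost without Mock library 1 or 2 or Pilo library 2, 3 or 4, at adjusted p up to 0.140, and with no filter on low counts (adjusted p = 0.0527). With the replicate number as a block, the adjusted p for Pcsk2 was 0.000357.

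**Figure D3:**
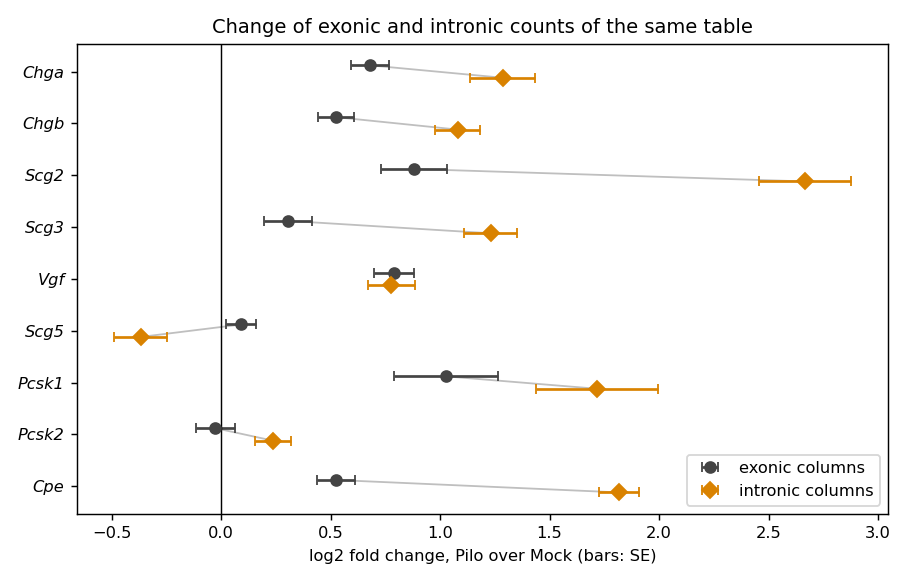
Log2 fold change of Pilo over Mock (horizontal axis) for the exonic columns (circles) and intronic columns (diamonds) of the second table, bars SE, 1 gene per line. The intronic change lies right of the exonic one for Chga, Chgb, Scg2, Scg3, Pcsk1, Pcsk2 and Cpe, on it for Vgf and left of it for Scg5.

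The intronic share of a gene's counts gives the regions side by side without scaling, and was described with no test. For Cpe it was 34.2, 32.9, 41.8 and 37.2% in Pilo, against 21.2, 19.5, 22.2 and 24.6% in Mock. For Scg2 it was 5.26, 5.96, 5.64 and 4.92% in Pilo, against 1.45, 1.65, 1.79 and 2.95% in Mock. Both genes had a larger intronic share in every Pilo library than in any Mock library.

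Over all genes the share was lower in Pilo, where intronic counts made up 29.2 to 30.6% of a library, against 31.9 to 33.7% in Mock. Scg3 had 43.1 ± 5.70% in Pilo and 32.3 ± 1.86% in Mock, and Pcsk1 had 32.5 ± 1.48% in Pilo and 25.2 ± 3.43% in Mock (SD, n = 4 each). Chga had 35.4 ± 3.11% in Pilo and 30.0 ± 2.99% in Mock, and Chgb 25.0 ± 2.68% in Pilo and 21.3 ± 1.41% in Mock. For Chga and Chgb the shares of Pilo and Mock libraries overlapped. Scg5, the one member with mostly intronic counts, had 60.0 ± 1.96% in Pilo and 70.9 ± 2.39% in Mock. Vgf had 8.94 ± 1.09% in Pilo and 10.5 ± 1.11% in Mock, and Pcsk2 had 44.6 ± 2.60% in Pilo and 44.4 ± 2.80% in Mock. The region term takes out the shift over all genes, so it can differ from these unscaled shares, as it did for Vgf and Pcsk2.

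Per kilobase of intron, the order of the genes was unlike the exonic order. Chga, at 32.6 ± 6.55 CPM per kb in Pilo and 13.4 ± 2.44 in Mock, and Chgb, at 30.8 ± 4.19 in Pilo and 14.6 ± 0.698 in Mock, led in both groups by mean and overlapped each other. In Mock, Chga also overlapped Scg5, at 10.6 ± 1.69 CPM per kb, and Scg5 overlapped Vgf, at 10.4 ± 1.07. Intron lengths are those of GENCODE vM21, while the annotation behind the intronic counts is not given. Cpe stood in the middle of the order in both, at 7.79 ± 0.604 CPM per kb in Pilo and 2.21 ± 0.0651 in Mock. Scg2 had 7.44 ± 1.54 CPM per kb in Pilo, where it overlapped Cpe, and 1.17 ± 0.372 in Mock, where its libraries overlapped those of Pcsk1, at 1.19 ± 0.523, and both stood at the low end of the 9. Pcsk2 was the lowest in Pilo, at 2.45 ± 0.0781 CPM per kb, and had 2.08 ± 0.0720 in Mock.

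Members were then compared library by library. In exonic counts, Pilo library 1 was the highest Pilo library for 7 of the 9 genes, with Chga highest in library 2 and Cpe in library 3. Pilo library 3 was the lowest for 6. Among Mock libraries, library 4 was the lowest for 6 of the 9 and the highest for 0. Introns did not share this order, since Pilo library 1 was the highest for Scg2, Scg3 and Pcsk1 only and library 3, which is library 2 of the exonic table, for Chga, Chgb, Vgf and Cpe. The correspondence between the tables' libraries rests on exonic columns, whose deviations correlated at 0.994 to 0.997 over genes.

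**Figure D4:**
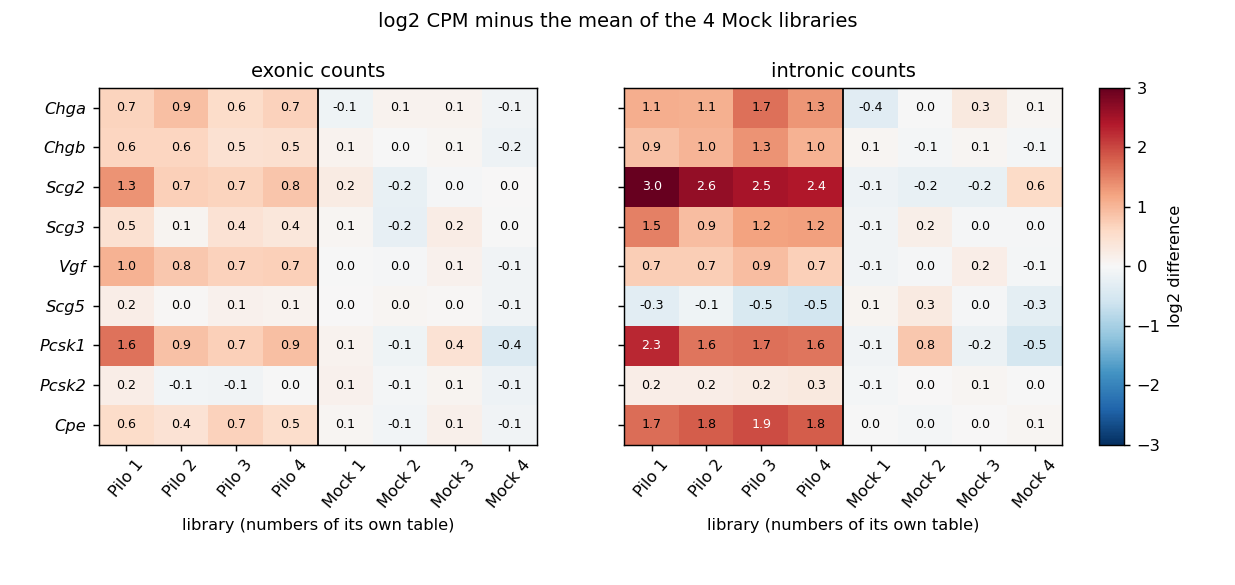
Log2 CPM of each gene in each library minus the mean of the 4 Mock libraries, exonic table on the left and intronic columns on the right, Pilo libraries left of Mock libraries. Scg2 reaches 3.0 in intronic Pilo library 1, and the Scg5 row turns from near 0 in exons to below 0 in Pilo introns. Vgf in Pilo is of similar size on both sides, 0.70 to 1.04 in exons and 0.71 to 0.92 in introns, with another order of libraries. Numbers 2 and 3 are swapped between the sides.

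The genes whose exonic pattern was most like that of a member were sought among 12569 protein-coding genes, by the root mean square difference of the 8 log2 deviations from the gene's own Mock mean. For Vgf they were Lsm11, at 0.0671, Cpeb3, at 0.0706, and Rab11a, at 0.0716. For Chga they were Sbds, at 0.0771, Pygb, at 0.0779, and Npr3, at 0.0794. For Chgb they were Chd2, at 0.0527, Arih1, at 0.0541, and Pde1a, at 0.0638. The nearest fellow member was further away in each case, Chga for Vgf at 0.159, Chgb for Chga at 0.158 and Cpe for Chgb at 0.129. With so many more other genes than members to choose from, a nearer gene outside the set is likely in any case. Nothing about likeness among members is read from these distances.

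The wider machinery of dense core vesicles and peptide processing was read from a list of 53 other genes, of which 52 were tested in exons. Of these, 14 rose and 0 fell, with a median log2 fold change of 0.14, against 0.00 over all genes tested. Over all genes 31.8% were called, 15.6% higher and 16.2% lower, which is also the background of the counts by function. At unadjusted p under 0.05, 1 fell, Pcsk7, and by DESeq2 and limma-voom 0 did. With the replicate number as a block, 19 rose and 1, Pcsk7, fell (log2 fold change -0.27, adjusted p = 0.00168), where 47.0% of all genes were called, 23.8% higher and 23.2% lower. In introns, 16 of 49 rose and 1, Bace1, fell by 0.35 (SE 0.12, adjusted p = 0.0282), where 41.4% of all genes were called, 19.6% higher and 21.9% lower. With the block 22 rose and 6 fell in introns, where 56.9% were called, 27.7% higher and 29.2% lower. Nothing particular to the list is read from these counts.

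**Figure D5:**
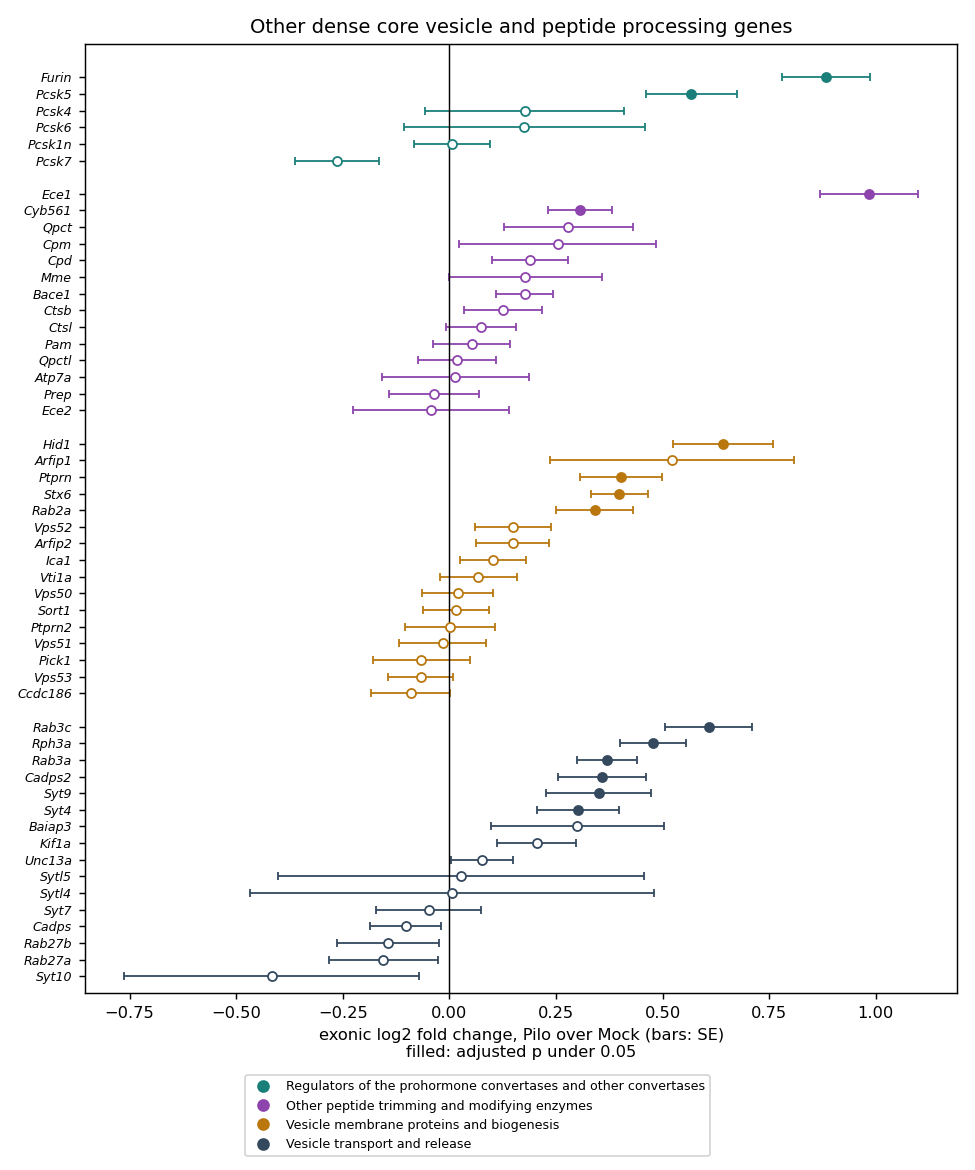
Exonic log2 fold change of Pilo over Mock for the 52 tested genes of the wider list, bars SE, ordered by size within 4 groups of function, with filled points past the test. The 14 filled points all lie right of 0, led by Ece1 at 0.98 and Furin at 0.88.

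Among the other convertases and their regulators, 2 of 6 rose. Furin, which cuts precursors in the constitutive pathway, had 93.5 ± 12.5 CPM in Pilo and 50.7 ± 4.71 CPM in Mock (SD, n = 4 each), a rise of 0.88 (SE 0.10, adjusted p = 4.26e-05). Pcsk5 rose by 0.57 (SE 0.11). Pcsk1n, which encodes proSAAS, an inhibitor of the Pcsk1 product, stood at 96.1 ± 11.4 CPM in Pilo and 95.7 ± 6.15 CPM in Mock, with a log2 fold change of 0.01 (SE 0.09).

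Of the 14 other trimming and modifying enzymes tested, 2 rose. Ece1, encoding an enzyme that activates endothelin precursors, had 131 ± 18.7 CPM in Pilo and 66.2 ± 8.30 CPM in Mock, a rise of 0.98 (SE 0.11, adjusted p = 4.79e-05). Cyb561, whose product regenerates ascorbate inside dense core vesicles, rose by 0.31 (SE 0.07). Pam, encoding the amidating enzyme of peptides, was chosen for mention after its values were seen. Its exonic log2 fold change was 0.05 (SE 0.09, adjusted p = 0.709), and it rose by 0.61 in introns (SE 0.10, adjusted p = 0.000222), a difference of -0.58 (SE 0.07, adjusted p = 6.52e-05).

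Of 16 vesicle membrane and biogenesis genes, 4 rose. Hid1, a Golgi protein needed for granule formation, rose by 0.64 (SE 0.12), Ptprn, a membrane protein of dense core vesicles, by 0.40 (SE 0.10), Stx6 by 0.40 (SE 0.07) and Rab2a by 0.34 (SE 0.09). Ptprn was abundant, at 1335 ± 108 CPM in Pilo and 1009.7 ± 107 CPM in Mock, and its introns rose by 0.79 (SE 0.12), more than its exons (difference -0.41, SE 0.07, adjusted p = 0.00159).

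Of 16 transport and release genes, 6 rose. The Rab GTPase genes Rab3c and Rab3a rose by 0.61 (SE 0.10) and 0.37 (SE 0.07), and Rph3a, encoding a Rab effector, by 0.48 (SE 0.08). Cadps2, encoding a priming factor of dense core vesicles, rose by 0.36 (SE 0.10), Syt9 by 0.35 (SE 0.12) and Syt4 by 0.30 (SE 0.10), with adjusted p from 0.0173 to 0.0440. The call of Cadps2 was lost without Mock library 2 or Pilo library 4, and that of Syt4 without Mock library 2 or 4 or Pilo library 1. The call of Syt9 was lost without any library other than Pilo library 1 and with no filter on low counts. In the exonic-against-intronic term, 4 of the 49 list genes tested had a larger and 4 a smaller exonic change. Over all 13047 genes tested, 13.5% were called with a larger and 12.8% with a smaller exonic change.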

How the data were processed

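Per the labels' protocols, directional libraries were made from polyadenylated RNA of captured nuclei. The authors deposited raw read counts per gene, as 1 table of exonic counts by Ensembl gene and 1 table of exonic and intronic counts by Entrez gene. Among the tools in the submitters' processing notes are STAR 2.7.1a, HTSeq 0.11.2 and Trimmomatic 0.39, with the build mm10. How the counting used strand, which annotation it used and how intronic reads were told apart is not given in the sources used here, so overlapping genes may share reads. Columns were assigned by name, and 0 columns were left over. Of 55471 Ensembl genes 55144 matched a symbol, and of 18513 Entrez genes 18507 did. Coordinates and exon lengths are from GENCODE vM21 on GRCm38, the build called mm10.

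The tests used edgeR 4.0.16 under R 4.3.3 (quasi-likelihood F-test, robust, TMM, filterByExpr with a minimum count of 10, Benjamini-Hochberg adjustment over all genes tested, threshold 0.05), with treatment as the only term. The standard error is the fitted coefficient divided by the square root of F. The region term was fitted on 13047 genes with a term per sample and a scaling factor per region. The scripts were tested on simulated data. DESeq2 1.42.0, limma-voom (limma 3.58.1), RLE scaling, other filters, the replicate block and leaving out each library were alternatives.

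Pilo and Mock share replicate numbers. Libraries with the same number deviated together, with correlations over genes of 0.496 to 0.604 in the exonic table and 0.362 to 0.589 in introns, all over 0.1, so the numbers were taken as pairs from the data. A blocked value stands beside a result where it changes the call. All 8 libraries counted as separate, since the chi-square between replicates was 9.09 to 40.4 times its degrees of freedom.

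The members, lists and tests were chosen with earlier results of these data known. The rule for named genes took every member, up to 15 of the wider list past the exonic test by smallest p, and the 3 genes most like each of the 3 members of smallest p with a mean count of at least 50; Fos, Arc and Npas4 checked the treatment.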

Additional observations from a re-analysis of the deposited data

Results flagged for a closer look

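In 4 cases a library stood apart from the other 3 of its group by more than Dixon's critical value for 4 samples allows. Over the 82 groups of 4 looked at, chance alone flags about 1 in 20. Pcsk1 was high in Pilo library 1, at 189.7 exonic CPM against 114 CPM in the next library, and at 211 intronic CPM against 139.7 CPM in the next. Without that library its log2 fold change was 0.81 in exons and 1.53 in introns, past the test in both. Syt4 was also high in Pilo library 1, at 282 exonic CPM against 224 CPM in the next, and did not pass without it (adjusted p = 0.0672). Intronic Scg2 was high in Mock library 4, at 5.08 CPM against 3.00 CPM in the next, and its log2 fold change without that library was 2.91.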

How the results depend on the processing

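Of 486 member results under alternatives, 442 kept their direction and side of the threshold, 30 lost the call, 0 gained one and 14 changed sign. All 14 sign changes were of results that did not pass the test. Exonic Pcsk2 (0.00) was -0.00073 under limma-voom, -0.0044 with no filter, -0.025 under the stricter filter and -0.00077 with the replicate block, and -0.067 to 0.059 when a library was left out; in the second table (-0.03) it ran from -0.096 to 0.019. The Vgf difference between regions (0.01) was -0.0015 under RLE scaling and ran from -0.087 to 0.064 when a library was left out. Leaving out each library gave 4843 to 6089 exonic, 3803 to 4843 second-table exonic, 4516 to 5593 intronic and 2580 to 3375 region calls over all genes, 6 to 7 members higher in either exonic table, 7 to 8 higher and 0 to 1 lower in introns, and 6 to 7 with a smaller exonic change. With the replicate block, 9015 exonic, 7110 second-table exonic, 7579 intronic and 5126 region calls were made, and of the members' calls only that of exonic Pcsk1 changed. In the second table exonic Scg3 lost its call under limma-voom (adjusted p = 0.0510) and without any library other than Mock 2 and Pilo 3, at adjusted p up to 0.117. The 39 to 73 Mock reads per library limit the precision of intronic Scg2.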
